A study of Homo sapiens with 6 samples.

Results

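The features described here are the probe sets of a human expression array to which the platform gene table attaches no gene symbol. Of 49293 probe sets that are not Affymetrix controls, 2473 had no row in that table. The rule that defines them uses that absence alone and no measured value. Another 44988 probe sets carried 1 symbol and 1832 carried several. A probe set that is missing from the table is unnamed here, which does not mean that it has no gene. The unnamed probe sets are therefore given by their identifiers.

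The samples were ARPE-19 cells, an established human line of retinal pigment epithelium, the pigmented cell layer behind the photoreceptors. Cells in 6-well plates received 2.5 µg of plasmid per well. The control group was given a plasmid for green fluorescent protein (GFP, 3 arrays), and the other group a plasmid with GFP and satellite alpha (SATalpha, 3 arrays), so both groups were transfected and both carried GFP. Each array measured total RNA of 1 transfection. Because no label says whether the wells were separate cultures, the p-values measure the spread between wells, part of which may be technical.

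Satellite alpha is the tandem repeat DNA on which human centromeres are built, and its transcripts are found at low levels in many cells. On an array of this kind a transcript is read near its 3′ end by a probe set, a group of short oligonucleotides summarised as 1 value. The ending of the identifier tells how specific the oligonucleotides were designed to be. Probe sets ending in _at match 1 transcript, and those ending in _a_at match alternative transcripts of 1 gene. Those ending in _s_at are shared by transcripts that may come from different genes, and those ending in _x_at contain oligonucleotides that can also bind unrelated transcripts. In bulk RNA, fewer cells with a transcript and less of it per cell cannot be told apart.

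The 6 arrays had near-equal medians, 5.29 to 5.31 on the log2 scale, and 0 pairs of arrays had identical values. The mean of the array medians was 5.30 in both groups, with an SD of 0.0039 over the GFP arrays and 0.010 over the SATalpha arrays (n = 3 each, two-sided exact permutation p = 1, where 0.1 is the smallest p this design allows). Because the authors had scaled the arrays to near-equal quantiles, this test cannot tell whether the groups were alike before scaling. Of 13 genes that mark retinal pigment epithelium, 9 had a probe set above the 40th percentile of all means (4.61), among them the transcription factors OTX2 (8.34) and MITF (8.11). The visual cycle genes RPE65 (3.41), RLBP1 (4.14) and LRAT (4.24) and the pigment gene TYRP1 (3.51) were below it. KRT18, an epithelial keratin, was the only 1 of the 13 past the threshold, at -0.21 (limma adjusted p = 0.00139). Of 10 measured markers of other epithelial, neural, immune, endothelial and melanocyte cells, 2 were above that percentile and none passed the threshold.

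Both of the largest differences in the whole table were in unnamed probe sets, 1 in each direction. The 6 values of 11729584_a_at were 7.10, 7.58 and 7.43 with GFP and 9.85, 9.96 and 9.80 with satellite alpha (log2). The lowest satellite alpha value stood 2.22 above the highest GFP value. The difference was 2.50 (SE 0.09, limma adjusted p = 2.21e-09), a 5.66-fold rise. It ranked 1 by size among the 49293 probe sets. The largest rise of any probe set with a symbol was 1.36, for SLF2.

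The opposite change was seen in 11761824_at. It gave 7.58, 7.42 and 7.43 with GFP and 5.26, 5.32 and 4.90 with satellite alpha. The groups were 2.11 apart at their nearest values. The difference was -2.32 (SE 0.10, limma adjusted p = 1.00e-08), a 4.99-fold fall, which ranked 2 by size. The largest fall among probe sets with a symbol was -1.68, for RAP1A, a small GTPase. A second large fall was that of 11740449_a_at, which ranked 6. Its GFP values were 8.85, 8.68 and 8.68 and its satellite alpha values 7.31, 7.16 and 7.29, and the groups lay 1.37 apart. The difference was -1.48 (SE 0.06, limma adjusted p = 8.36e-09), or 2.80-fold.

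These 3 were the members past the threshold that changed by at least 2-fold, against 0.0588% of all probe sets tested (29 of 49293). Each of them stayed past the threshold when any of the 6 arrays was left out, and under each of the other alternatives listed with the methods. Of the 10 largest differences in the series 3 belonged to unnamed probe sets, of the 50 largest 4 did, and of the 100 largest also 4. Unnamed probe sets were 2473 of the 49293 tested. None of the 3 members that changed by at least 2-fold sat near the top of its arrays. The array maxima differed by group, at 14.31 to 14.32 with GFP and 13.98 to 14.01 with satellite alpha.

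The unnamed neighbours of the 2 extremes in the array's numbering did not pass the test. Numbers on this array run consecutively, and probe sets of 1 gene are often numbered side by side. Among adjacent numbers with 1 symbol each, 25.6% carried the same symbol (10708 of 41849 pairs). The unnamed probe set numbered directly after the one that rose most, 11729585_x_at, gave 10.12, 10.04 and 10.08 with GFP and 10.20, 10.12 and 10.06 with satellite alpha. Its groups overlapped and its difference was 0.05 (SE 0.05, limma adjusted p = 0.628). The unnamed probe set numbered directly before the one that fell most, 11761823_at, was dim in every array (2.19 to 2.66) and differed by 0.10 (SE 0.12, limma adjusted p = 0.720). For 11740449_a_at neither neighbouring number was unnamed. Whether any of these neighbours reads the same transcript was not tested.

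Over all unnamed probe sets the share that changed was below that of the whole array, a gap that was not tested. Of 2473 members, 160 passed limma's adjusted p of 0.05 (6.47%), against 8.36% of all probe sets tested. In the upward direction 85 members passed (3.44%), against 4.18% of the table, and in the downward direction 75 (3.03%), against 4.19%. The 3 satellite alpha values lay all above or all below the 3 GFP values in 572 members (23.1%), against 26.0% of all probe sets. Of the 160 called members, 159 were separated in this way, as were 4096 of the 4123 called probe sets of the whole table. The median difference over all members was -0.0020, beside -0.00029 over all probe sets.

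Most of the called members changed little. The median size among the 160 was 0.32 on the log2 scale, and it was also 0.32 among all 4123 called probe sets. The quartiles of the 160 were 0.23 and 0.41 and the smallest value 0.12, and 26 of them changed by 0.5 or more. A change of at least 1.5-fold was reached by 12 called members (5 higher and 7 lower, 0.485%), against 0.700% of the table. The count of 160 depended on single arrays and on how the variance was estimated. Removing GFP replicate 1 gave 71 (2.87% of members, against 3.99% of all probe sets), and removing SATalpha replicate 1 gave 78 (3.15%, against 4.37%). Removing GFP replicate 2 gave 95 (3.84%, against 5.51%) and removing GFP replicate 3 gave 93 (3.76%, against 6.00%). The count was 128 (5.18%, against 6.85%) with SATalpha replicate 2 removed and 160 (6.47%, against 8.77%) with SATalpha replicate 3 removed. These were not all the same members: of the original 160, 105 and 121 were called again in the same direction. With no mean-variance trend 45 members passed (1.82%, against 2.68% of all probe sets), and with an unmoderated test 14 (0.566%, against 0.655%). Of the 160, 56 passed in the same direction whichever array was left out (30 higher and 26 lower). This count was not made over all probe sets, so it cannot be read as particular to the members.

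After 11729584_a_at, the next largest increases were less than 2-fold. The probe set 11759633_at was low with GFP (4.20, 4.34 and 4.32) and higher with satellite alpha (5.12, 5.23 and 5.28). It rose by 0.93 (SE 0.10, limma adjusted p = 7.09e-05), with no overlap, and ranked 41 in the table. A bright one, 11749935_s_at, went from 9.70, 9.45 and 9.72 to 10.32, 10.47 and 10.30, and rose by 0.74 (SE 0.07, adjusted p = 1.06e-05). The GFP values of 11758668_s_at were 4.43, 4.26 and 4.56 and its satellite alpha values 4.98, 5.16 and 5.13, a rise of 0.67 (SE 0.11, adjusted p = 0.00161). That of 11731455_at, from 7.00, 7.12 and 6.88 to 7.59, 7.44 and 7.72, was 0.59 (SE 0.08, adjusted p = 0.000421). In each of these 4 the groups were further apart than the range within either group.

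The remaining increases of the leading 10 lay between 0.53 and 0.54. They were 11760441_at (0.54, SE 0.11), 11719778_s_at (0.54, SE 0.09), 11732118_a_at (0.53, SE 0.08), 11718269_x_at (0.53, SE 0.07) and 11754629_s_at (0.54, SE 0.15), with limma adjusted p-values of 0.000183 to 0.0344. The call of the last of these depended on single arrays. Its GFP values spread widely, at 3.90, 4.60 and 4.36, below satellite alpha values of 4.86, 4.77 and 4.86. It no longer passed when GFP replicate 1 (0.35), GFP replicate 3 (0.58) or any SATalpha replicate (0.53, 0.57 and 0.53) was removed, nor without the mean-variance trend (0.54).

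Among the decreases, 3 probe sets with consecutive numbers fell together. The first, 11722850_a_at, was at 7.03, 6.84 and 6.87 with GFP and at 6.21, 6.16 and 6.23 with satellite alpha, and fell by 0.71 (SE 0.07, limma adjusted p = 4.71e-05). The second, 11722851_at, went from 4.97, 5.08 and 4.84 to 4.47, 4.58 and 4.56, a difference of -0.42 (SE 0.10, adjusted p = 0.0214). The third, 11722852_s_at, went from 6.26, 6.30 and 6.56 to 6.26, 5.70 and 5.51, a difference of -0.55 (SE 0.15, adjusted p = 0.0325). SATalpha replicate 1 stood apart in this last probe set, only 0.0058 below the lowest GFP value. Without that array the difference was -0.77 (limma adjusted p = 0.00242). The call was lost when any GFP array was removed (-0.61, -0.59 and -0.46 for replicates 1, 2 and 3). It was also lost without SATalpha replicate 2 (-0.49) or replicate 3 (-0.40), with array weights (-0.41) or with no mean-variance trend (-0.55).

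The other leading decreases came from single probe sets, several of them dim. In 11715280_s_at the values were 4.85, 4.96 and 4.59 with GFP and 3.91, 4.08 and 4.28 with satellite alpha, a fall of 0.71 (SE 0.13, limma adjusted p = 0.00305). The probe set 11751536_a_at fell by 0.65 (SE 0.11, adjusted p = 0.00182), from 4.20, 4.36 and 4.19 to 3.61, 3.67 and 3.53. A brighter one, 11722929_a_at, fell by 0.60 (SE 0.08, adjusted p = 0.000230), from 7.72, 7.92 and 7.68 to 7.13, 7.10 and 7.30. In 11728494_at the difference was -0.57 (SE 0.12, adjusted p = 0.00691). In these 4 the groups did not overlap, and the calls held whichever array was left out.

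In 2 of the leading decreases the call depended on single arrays. In 11746822_at the values were 4.20, 4.46 and 4.26 with GFP against 3.19, 3.81 and 3.81 with satellite alpha, a difference of -0.71 (SE 0.16, limma adjusted p = 0.0110). It no longer passed when GFP replicate 2 was removed (-0.63). In 11759394_at the GFP values were 3.20, 3.29 and 3.24, SATalpha replicates 1 and 3 were at 2.53 and 2.47, and SATalpha replicate 2 was higher, 0.21 below the lowest GFP value. This gave a difference of -0.58 (SE 0.13, adjusted p = 0.0139). Removing GFP replicate 2 (-0.56) or SATalpha replicate 1 (-0.51) took its adjusted p above 0.05. Both also missed the threshold when the mean-variance trend was left out. The unnamed neighbours of 2 dim decreases also had lower satellite alpha values on all 3 arrays without passing the test. The one beside 11751536_a_at, 11751537_x_at, differed by -0.21 (adjusted p = 0.283). The one beside 11759394_at, 11759395_x_at, differed by -0.25 (adjusted p = 0.181).

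Further probe sets were named for having the smallest p-values of their kind. At 9.32, 9.30 and 9.22 with GFP and 9.73, 9.76 and 9.81 with satellite alpha, 11719188_at rose by 0.49 (SE 0.05, limma adjusted p = 1.45e-05). Its unnamed neighbour 11719189_at was also bright and differed by 0.05 (adjusted p = 0.669), with overlapping groups. In 11743580_s_at the rise was 0.51 (SE 0.07, adjusted p = 0.000267), from 7.55, 7.49 and 7.56 to 8.14, 8.08 and 7.90. The next 2 numbers, 11743581_s_at and 11743582_a_at, differed by 0.12 and 0.05 (adjusted p = 0.421 and 0.548). The most clearly lower probe set of the _x_at class was 11758531_x_at, at 8.68, 8.61 and 8.79 with GFP and 8.33, 8.35 and 8.41 with satellite alpha. It fell by 0.33 (SE 0.06, adjusted p = 0.00210), a call that needed the mean-variance trend.

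The kinds of probe set were not equally common among the unnamed. The _at ending made up 33.9% of them (838), against 24.0% of probe sets with 1 symbol. The _a_at ending made up 37.1% (917), against 48.2%. The shared kinds had nearly the same weight in both, at 12.6% (312) against 11.7% for _s_at and 16.3% (403) against 15.9% for _x_at. The other 3 unnamed probe sets carry PM in their names, were all very bright (means of 13.02 to 13.55), and differed by -0.03 to -0.0066 without passing.

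Calls by kind followed the same order as in the named probe sets. In _at, 35 members passed (21 higher and 14 lower, 4.18%), against 5.50% of 1-symbol probe sets with that ending. In _a_at, 62 passed (33 higher and 29 lower, 6.76%), against 9.05%. In _s_at, 37 passed (16 higher and 21 lower, 11.9%), against 11.8%. In _x_at, 26 passed (15 higher and 11 lower, 6.45%), against 8.81%, and 0 of these reached 1.5-fold. Brightness differed between the kinds in the same order as the calls at both ends: the median mean level was 3.60 for unnamed _at probe sets and 6.31 for unnamed _s_at ones. Whichever array was left out, 11 of 35, 22 of 62, 16 of 37 and 7 of 26 passed in _at, _a_at, _s_at and _x_at. The matching counts for named probe sets were not made.

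The called share ranged more widely with brightness (0.951% to 17.2%) than with kind (4.18% to 11.9%). A level depends on the oligonucleotides as well as on the RNA, so bands of the mean over 6 arrays describe signal, not abundance. Under 4 on the log2 scale lay 946 members (38.3%), against 29.6% of 1-symbol probe sets. From 4 to 6 there were 656 (26.5%), from 6 to 8 there were 483 (19.5%), from 8 to 10 there were 267 (10.8%), and at 10 and over 121 (4.89%). The median over all members was 4.73, against 5.33 with 1 symbol.

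Few dim members passed. In the band under 4, 9 of 946 were called (6 higher and 3 lower, 0.951%), against 1.21% of 1-symbol probe sets in that band. From 4 to 6, 31 were called (20 higher and 11 lower, 4.73%), against 4.71%. From 6 to 8 the count was 58 (31 higher and 27 lower, 12.0%), against 13.5%. The share was largest from 8 to 10, where 46 were called (23 in each direction, 17.2%), against 21.1%. At 10 and over 16 were called (13.2%), against 19.6%. If every band of members had been called at the rate of the 1-symbol probe sets in that band, 187.6 would have been called where 160 were. Whether the 2 kinds differ was not tested. The median SE fell from 0.11 in the lowest band to 0.04 in the highest, so a change of a given size was harder to detect in dim probe sets.

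The balance of directions in the brightest band varied with scaling and with the removal of dim probe sets. At 10 and over, 5 called members were higher and 11 lower, and of the called 1-symbol probe sets in that band 247 were higher and 173 lower. After quantile normalization the members gave 1 higher and 12 lower and the 1-symbol probe sets 200 and 207. The members gave 6 and 10 after median centring. With the lowest 40% of probe sets left out, which rescales no value, they gave 10 and 12. Lower calls outnumbered higher ones among the members in each of these settings. Over all bands the higher share of the called members moved little, from 53.1% to 52.5% with quantile normalization and 52.1% with median centring.

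The 5 brightest members all ended in _x_at, and none passed. The brightest, 11757772_x_at, was at 13.75, 13.76 and 13.76 with GFP and at 13.70, 13.71 and 13.71 with satellite alpha. Its groups did not overlap, but the difference of -0.05 (SE 0.03, limma adjusted p = 0.328) missed the threshold. In 11758319_x_at, 11757305_x_at, 11744653_x_at and 11755503_x_at, whose means were 13.55 to 13.69 in either group, the groups overlapped and differences were -0.05 to 0.01. The dimmest member, 11764216_at, had a mean of 1.91 and a difference of -0.06 (adjusted p = 0.819).

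Unnamed probe sets were not spread evenly over the array's numbering. In successive blocks of 5000 numbers they made up 3.40% to 4.84% of probe sets, except in the last block, where they made up 14.2% (610 of 4293, numbers 11760000 to 11764292). There 457 of the 610 ended in _at (74.9%, against 5.83% to 33.3% in the other blocks). Their median level was 3.28, below that of members in every other block (4.11 to 7.54), and 431 of them lay under 4. The 1-symbol probe sets of that block were dim as well, with a median of 3.85. In it 17 unnamed probe sets passed (2.79%), against 3.60% of those with 1 symbol, and the fall of 11761824_at was 1 of them.

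Many unnamed probe sets stood next to one another. Of the 2470 with an 8-digit number, 1328 formed 518 runs of 2 or more consecutive numbers, and 178 runs held at least 3. The longest run was 15, from 11764190_at to 11764204_at, with means of 2.36 to 5.13, and none of its members passed. Members of a run may read the same transcript, so the 160 calls are not 160 separate transcripts. Of these, 87 fell in runs and 73 had no unnamed neighbour. In addition, 3 pairs of members held the same 6 values to the last digit under 2 identifiers, and none of those pairs was called. No member shared its 6 values with a probe set that has a symbol.

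Where more than 1 member of a run was called, the direction was the same. This held in all 11 such runs, and in 5 of them every member was called. The pairs of adjacent unnamed numbers with both members called numbered 15, and 15 had the same direction. Among adjacent 1-symbol pairs with both called, the direction was the same in 349 of 358 pairs with the same symbol and in 144 of 274 with different symbols. Across the 223 adjacent unnamed pairs with both means at 6 or above, the 2 differences had a Pearson correlation of 0.36 and a Spearman correlation of 0.52. The corresponding Pearson values were 0.63 over 3532 pairs with the same symbol and 0.03 over 6347 with different symbols. The Spearman values of those pairs were 0.60 and 0.03. These are descriptions, since all pairs come from the same 6 arrays and pairs within a run overlap.

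Besides the falling run at 11722850_a_at, a run of 3 rose as a whole. In 11718267_a_at the GFP values were 5.86, 5.79 and 5.83 and the satellite alpha values 6.30, 6.28 and 6.44, a rise of 0.51 (SE 0.08, limma adjusted p = 0.00111). In 11718268_a_at they were 7.71, 7.83 and 7.78 against 8.12, 8.25 and 8.20, a rise of 0.42 (SE 0.06, adjusted p = 0.000437). In 11718269_x_at they were 6.71, 6.84 and 6.71 against 7.29, 7.28 and 7.27, a rise of 0.53 (SE 0.07, adjusted p = 0.000183). Their groups lay 0.30 to 0.43 apart. Another run of 3, 11729914_at to 11729916_s_at, rose by 0.28 to 0.31, with adjusted p-values of 0.0150 to 0.0391. In the first of these the groups overlapped (7.22, 7.05 and 6.96 against 7.45, 7.20 and 7.50). These runs were chosen after their values were seen.

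Another pair of runs was called throughout, 1 in each direction. The pair 11745378_a_at and 11745379_x_at fell by 0.29 and 0.26 (limma adjusted p = 0.0120 and 0.0140). The dim pair 11763003_at and 11763004_x_at rose by 0.43 and 0.39 (adjusted p = 0.0221 and 0.0360).

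In other runs some members moved and others did not. The 7 numbers from 11739031_s_at to 11739037_s_at held 3 called members in the middle, 11739033_a_at (0.38, limma adjusted p = 0.00103), 11739034_s_at (0.50, adjusted p = 0.000389) and 11739035_x_at (0.30, adjusted p = 0.0137). In 11739034_s_at the values were 7.68, 7.87 and 7.66 with GFP and 8.31, 8.27 and 8.13 with satellite alpha. The first 2 of the run differed by 0.10 each (adjusted p = 0.256 and 0.298). The last 2 were dim, with means under 4, and differed by 0.03 and 0.08 (adjusted p = 0.893 and 0.786). In the run of 11719647_a_at (0.31, adjusted p = 0.0431) and 11719648_a_at (0.50, adjusted p = 0.000305), the third, 11719649_at, differed by 0.01 (adjusted p = 0.960). Whether the members of these runs read the same transcript was not tested.

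Over the unnamed probe sets alone the arrays still fell into the 2 groups. The first principal component held 38.6% of their variance and gave the GFP arrays loadings of -0.44 to -0.38 and the satellite alpha arrays 0.32 to 0.47. The second held 20.7% and set SATalpha replicate 3 (0.66) against SATalpha replicate 2 (-0.54). Correlations between arrays over the members were 0.996 to 0.997 within groups and 0.995 to 0.996 between them, nearly the same as over all probe sets.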

How the data were processed

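Total RNA of 3 GFP and 3 SATalpha transfections was measured on 3′ expression arrays. The deposited table holds log2 values that the authors had scaled so that the 6 arrays have near-equal quantiles. The logarithm base was inferred from the array maxima. MAS5 and RMA are both named in the submitters' processing notes, with no role or version. Background correction and filters are not stated there, and no detection call was used.

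Probe sets without a symbol were found by matching identifiers to the platform gene table. SATalpha minus GFP was fitted with limma 3.58.1 in R 4.3.3 (lmFit, eBayes with a mean-variance trend) over all 49293 non-control probe sets, with no filter, two-sided, and Benjamini-Hochberg adjustment over all of them. The threshold was 0.05, and standard errors (SE) are moderated. The number of arrays limits the precision. On simulated tables of 49293 probe sets (10 simulations, 200 changed each) the fit recovered 13.0% of changes of 1.2-fold, 71.6% of 1.5-fold and 98.3% of 2-fold, and 4.83% of calls were false. The simulated variances were drawn from the variance model that limma had fitted to these data. These rates therefore cannot check that model, on which the number of calls depended. The data held 4123 calls, so the rates may differ there.

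Probe sets were named by a rule: the 10 largest increases and 10 largest decreases among called members whose groups did not overlap, the 2 smallest p-values per ending, the 5 brightest members and the dimmest. Other probe sets in the text are neighbours by number, picked with their values known. The members and lists were chosen with earlier results of these data known. Same-numbered replicates were checked for pairing and are treated as unpaired. Alternatives were 2 filters, quantile normalization, median centring, no trend, array weights, a replicate block, an unmoderated test, narrower sets of probe sets, a fold threshold and each array left out.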

Additional observations from a re-analysis of the deposited data

How the results depend on the processing

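The count of 160 called members (85 higher and 75 lower) stayed within 1.5 times under both filters, quantile normalization, median centring, array weights and the removal of probe sets with several symbols (147 to 219 called). With array weights 219 members were called (8.86%, against 11.1% of all probe sets). The filters changed the number tested. With the lowest 40% left out, 178 of 1286 members were called (13.8%, against 15.8% of all probe sets). With the lowest 60% left out, 147 of 868 were (16.9%, against 21.6%). Of the original 160, 146 and 120 were still tested, and all of these were called again. The count was also within 1.5 times without SATalpha replicate 2 or 3 (128 and 160), but only 105 and 121 of the original 160 were called again there. Without the mean-variance trend it was 45 (30 higher and 15 lower), with the unmoderated test 14 (7 higher and 7 lower), and with a change of at least 1.5-fold required 12 (5 higher and 7 lower). Without _s_at and _x_at probe sets it was 94 (52 higher and 42 lower, 5.35%, against 7.68% of all probe sets tested). Of the 160, 97 have other endings, and 93 of these were called again. Leaving out 1 array gave 71 to 160 called, 39 to 77 higher and 32 to 83 lower. Fewer arrays also give less power.

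Same-numbered wells did not deviate together: their deviations from the group means correlated at -0.0061, -0.12 and -0.14. This cannot show whether the wells had been prepared as pairs. With the number as a replicate block, 77 members were called (42 higher and 35 lower, 3.11%, against 4.72% of all probe sets). Of these, 76 were among the 160. The block also ended the calls of 11722852_s_at (-0.55, limma adjusted p = 0.0621) and 11754629_s_at (0.54, adjusted p = 0.0566).

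For the named probe sets 0 of 433 recomputed differences reversed a call and 37 lost the threshold, 16 of them under the unmoderated test and 5 with no mean-variance trend. The 2 extremes, 11729584_a_at and 11761824_at, ranged from 2.37 to 2.61 and from -2.40 to -2.19. Their adjusted p-values reached 0.0352 at most, under the unmoderated test.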
